A study of Mus musculus with 6 samples.

Results

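H19 and Cdkn1c are imprinted genes of distal mouse chromosome 7, and both restrain growth. All transcripts that the deposited table lists under either gene name were taken, which gave 10 of 33539 listed transcripts, 3 of H19 and 7 of Cdkn1c. Both genes were chosen by their difference between the genotypes in these same libraries, so that difference is given as a description with no test. The libraries were made from peritoneal macrophages of mice, 3 from wild-type (WT) mice and 3 from littermates with a conditional knockout (cKO) of Fbxo38 in myeloid cells. FBXO38 is the subunit that binds substrates in a cullin-based ubiquitin ligase. All 6 cultures were treated for 24 h with both IL-4 and IL-13 (20 ng/mL), which induces the alternative (M2) state, and no unstimulated culture was analysed here. The Cre driver, the age and sex of the mice, and whether WT mice carried floxed alleles are not stated in the labels.

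At an imprinted gene, the copy from 1 parent is active and the copy from the other parent is silenced by marks set in the germ line. H19 is a noncoding RNA made from the maternal copy. It is abundant in the embryo and placenta and is largely switched off after birth, and it is the precursor of the microRNA miR-675. A CTCF-bound control region beside H19 lets the maternal chromosome make H19 and the paternal chromosome make the growth factor Igf2. Cdkn1c encodes p57Kip2, a cyclin-dependent kinase (CDK) inhibitor of the Cip/Kip family. It is also expressed from the maternal copy, but under a separate control region that holds the promoter of the noncoding RNA Kcnq1ot1.

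By transcript identifier, the members were matched to GENCODE M21, which uses the GRCm38 build. The authors' build is not named in the sources, so the coordinates are those of the annotation. H19 lies at chr7:142575529-142578143 and Cdkn1c at chr7:143458339-143461050, both on the minus strand and 880 kb apart. Listed H19 transcripts were 3 of the 7 that are annotated. ENSMUST00000136359, the full-length model, has 5 exons and 2286 bases, ENSMUST00000152754 has 5 exons and 1521 bases, and ENSMUST00000140716 has 2 exons and 817 bases. The miR-675 hairpin lies within an exon of the first and second and outside the last. The mature sequences from RefSeq (GRCm38.p6), with the seed at bases 2 to 8 in capitals, show that its arms have different seeds. They lie at chr7:142577112-142577133 (5p) and chr7:142577078-142577099 (3p), on the minus strand. Mature miRNA was not measured in these poly(A) libraries.
mmu-miR-675-5p: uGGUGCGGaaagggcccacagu
mmu-miR-675-3p: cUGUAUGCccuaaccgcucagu

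The listed Cdkn1c transcripts were 4 of the 5 that are annotated, plus 3 transcripts assembled by StringTie with no reference identifier, whose structures are not in the table. Cdkn1c-201 (1901 bases) and Cdkn1c-202 (1888 bases) share 1847 bases, which is 97.2% of Cdkn1c-201. They differ in where the coding sequence starts. The GENCODE sequences are shown because this pair gives the clearest exchange between the genotypes. The stretch of Cdkn1c-202 lies at chr7:143460633-143460707 and that of Cdkn1c-201 at chr7:143460633-143460668. Capitals mark the 39 coding bases that Cdkn1c-202 has and the coding sequence of Cdkn1c-201 lacks.
Cdkn1c-202 coding start: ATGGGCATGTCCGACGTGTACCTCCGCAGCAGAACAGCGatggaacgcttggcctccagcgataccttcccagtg
Cdkn1c-201 coding start: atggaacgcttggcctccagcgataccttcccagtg

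Cdkn1c-203 (646 bases) and Cdkn1c-205 (667 bases) are shorter models whose coding start is annotated as not found. Cdkn1c-203 lies wholly within the bases of Cdkn1c-202, and 94.6% of Cdkn1c-205 does. The sequences that tell them apart follow. In Cdkn1c-205, capitals mark the 36 bases that Cdkn1c-202 lacks, shown with 20 bases on either side (chr7:143459231-143459814, across an intron). For Cdkn1c-203, the Cdkn1c-202 sequence at chr7:143460012-143460113 is shown with 15 bases on either side, and capitals mark the 72 bases that Cdkn1c-203 lacks. In the GENCODE transcript, the last 8 bases of this segment also stand directly before it and its first base also follows it, so that a 9-base direct repeat spans both edges.
Cdkn1c-205 own bases: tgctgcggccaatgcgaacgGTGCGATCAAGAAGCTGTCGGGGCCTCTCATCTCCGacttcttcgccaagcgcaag
Cdkn1c segment absent from Cdkn1c-203: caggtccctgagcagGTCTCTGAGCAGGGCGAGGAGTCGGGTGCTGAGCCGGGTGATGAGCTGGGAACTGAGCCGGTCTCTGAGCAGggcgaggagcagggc

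**Figure D1:**
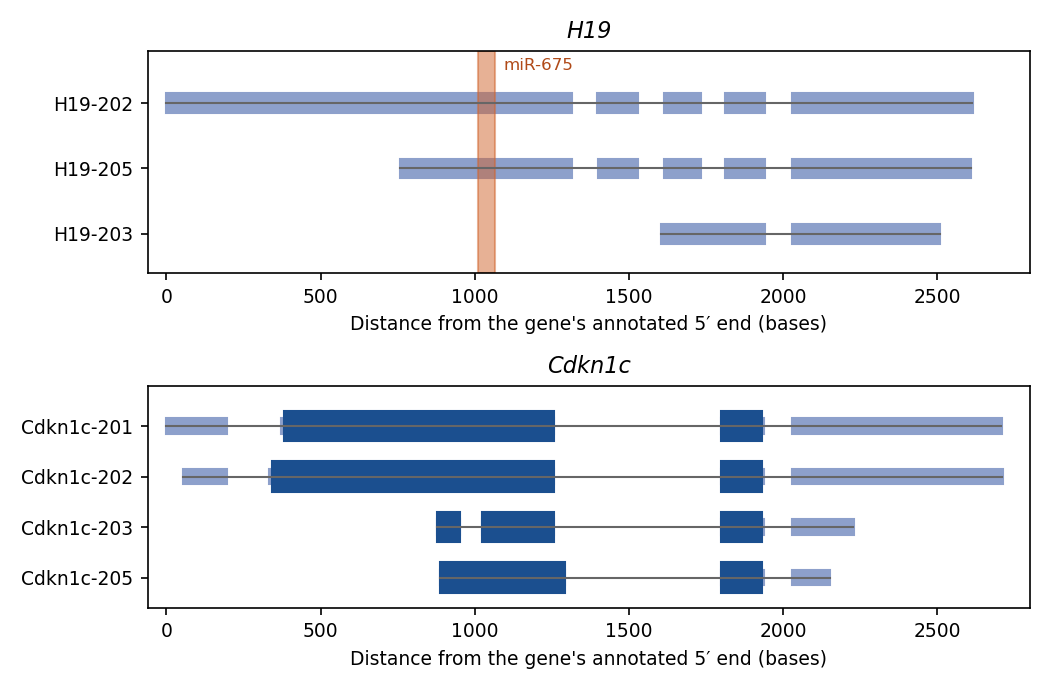
Exons of the listed annotated transcripts of H19 (3) and Cdkn1c (4), drawn to scale as distance in bases from the annotated 5′ end of the gene; thick boxes are coding sequence, thin boxes are noncoding, and the shaded band is the miR-675 hairpin. The hairpin lies in the upper 2 of the 3 H19 transcripts, and the coding sequence of Cdkn1c-202 starts before that of Cdkn1c-201.

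The table is selected on the outcome. No listed transcript has a log2 fold change nearer to 0 than 1.0001 in either direction. Levels are in TPM, of which each library holds 1000000, and the listed transcripts take up 2.01% to 6.57% of it, most in WT 2. TPM is scaled per length and keeps no read depth, so the depth is unknown. The listed Fbxo38 transcripts summed to 8.79, 11.8 and 12.4 TPM across WT 1 to 3, against 6.14, 9.08 and 5.90 TPM across cKO 1 to 3. The groups overlapped. Any Fbxo38 transcripts that changed less are not listed, so this sum cannot check the genotype labels. Which exons were deleted is not stated in the labels. Xist, made by the inactive X chromosome, reached 43.8 TPM in WT 2 and 3.83 TPM in WT 1 but was 0 elsewhere. Y-linked Eif2s3y was 0 in both of those, 51.2 TPM in WT 3 and 35.6 to 45.1 TPM in cKO. All 5 tested sex-linked transcripts were Y-linked and higher in cKO, so sex-linked expression was split unevenly between the genotypes. Xist was not tested. Among libraries with Y-linked transcripts alone, 1 of the 5 was higher and 4 were lower in cKO.

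Any H19 transcripts that changed less are not listed, so the values below are not the level of the whole gene. The listed H19 signal was lower in cKO, and most of it was in the full-length transcript that contains the miR-675 hairpin. This transcript (ENSMUST00000136359) measured 1.59, 6.22 and 1.72 TPM across WT 1 to 3, against 0.23, 0.33 and 0.34 TPM across cKO 1 to 3. WT 2 was far above the other libraries, WT 1 and WT 3 were close to each other, and the cKO libraries were all below every WT library. The WT mean was 3.18 ± 2.64 TPM against 0.300 ± 0.0608 TPM for cKO (SD, n = 3 each). On the log2(TPM + 1) scale, which understates the change of low transcripts, the difference of cKO from WT was -1.51 ± 0.48 (SE). For comparison, the median difference of the 2050 transcripts tested below was -0.39, and rescaling the libraries by median ratios moved that median by 0.71. In bulk RNA, fewer cells of a type and less RNA per cell cannot be told apart.

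The other listed H19 models were near 0. The 2-exon ENSMUST00000140716 was at 0.25 TPM in WT 2 and listed at 0 elsewhere. ENSMUST00000152754, which also contains the hairpin, was at 0.16 and 0.32 TPM in WT 1 and WT 2, at 0.15 TPM in cKO 2, and listed at 0 in WT 3, cKO 1 and cKO 3. All 3 H19 transcripts are lower by the deposited fold change. Of genes with 3 listed transcripts, 23.9% have all of them lower, and 60.6% of all listed transcripts are lower.

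The summed H19 level was 1.75, 6.79 and 1.72 TPM across WT 1 to 3, against 0.23, 0.48 and 0.34 TPM across cKO 1 to 3. The groups did not overlap, and the lowest WT library was 3.58 times the highest cKO library. The means were 3.42 ± 2.92 and 0.350 ± 0.125 TPM (SD, n = 3 each), a ratio of 9.77. Much of this ratio came from WT 2, which was at 3.88 times WT 1, and without WT 2 the ratio was 4.96. On the log2(TPM + 1) scale the summed level then differed by -1.02, where the median of all tested transcripts was 0.12. WT 3, the lowest WT library, is also the only one that shares Y-linked expression with the cKO libraries. The ratio of 3.58 above is therefore that of WT 3, and the part of sex in the difference was not tested.

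Cdkn1c went the other way in its listed transcripts, which likewise do not give the level of the whole gene. The summed Cdkn1c level was 18.6, 17.2 and 9.81 TPM across WT 1 to 3, against 31.2, 31.2 and 35.1 TPM across cKO 1 to 3. The cKO libraries were close to each other and all above the WT libraries, of which WT 3 was lowest. The WT mean was 15.2 ± 4.73 TPM against 32.5 ± 2.27 TPM for cKO (SD, n = 3 each), so that cKO was 2.14 times as high, and the log2(TPM + 1) values differed by 1.09 ± 0.28 (SE). The lowest cKO library was 1.68 times the highest WT library and 3.18 times WT 3. The coefficient of variation was 31.1% in WT and 7.0% in cKO.

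**Figure D2:**
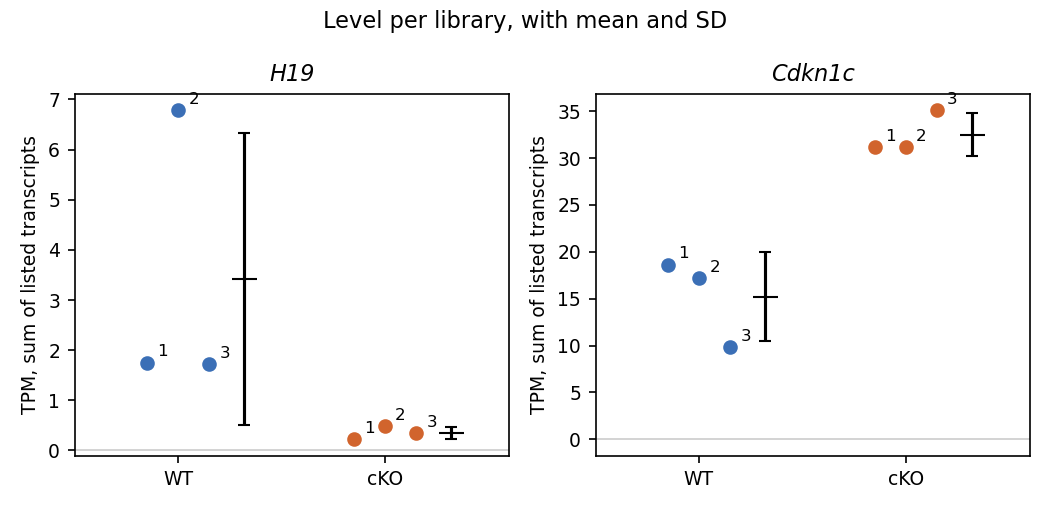
Summed TPM of the listed transcripts of H19 (left) and Cdkn1c (right) in each of the 3 WT and 3 cKO libraries, numbered by replicate; the horizontal bar is the group mean and the vertical bar is 1 SD. H19 was higher in every WT library, with WT 2 at 6.79 TPM, and Cdkn1c was higher in every cKO library.

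Per length, the summed listed transcripts of Cdkn1c exceeded those of H19 in every library. Transcripts that changed less are not listed, so this does not compare the levels of the whole genes. The ratio of the Cdkn1c sum to the H19 sum was 10.6, 2.54 and 5.70 in WT 1 to 3 and 136, 65.0 and 103 in cKO 1 to 3. For H19 the order of the libraries was WT 2, WT 1, WT 3, cKO 2, cKO 3 and cKO 1, with WT 1 and WT 3 nearly equal. For Cdkn1c it was cKO 3, cKO 1, cKO 2, WT 1, WT 2 and WT 3, with cKO 1 and cKO 2 nearly equal. Within a genotype, the library with the highest H19 was therefore not the library with the highest Cdkn1c.

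Of the 7 Cdkn1c transcripts, 6 are higher and 1 is lower in cKO by the deposited fold change. Of the 191 genes with 7 listed transcripts, 2.09% have exactly 6 higher, and 39.4% of all listed transcripts are higher. The assembled MSTRG.17149.1 was the most abundant, at 6.82, 2.76 and 3.53 TPM across WT, against 7.11, 11.63 and 7.33 TPM across cKO, so that WT 1 almost reached the lowest cKO library. The assembled MSTRG.17149.5 measured 2.46, 3.90 and 2.27 TPM across WT, against 8.63, 5.01 and 8.61 TPM across cKO. Its groups stood further apart, with cKO 2 nearest to WT. The third assembled transcript, MSTRG.17149.6, was at 0.50 TPM or lower in all libraries.

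Among the annotated protein-coding transcripts, Cdkn1c-202 (ENSMUST00000167912), which holds the upstream start, measured 2.94, 1.51 and 1.18 TPM across WT, against 4.21, 4.71 and 3.63 TPM across cKO. Cdkn1c-201 (ENSMUST00000037287), which starts at the downstream ATG, was at 2.29, 1.94 and 1.59 TPM in WT, at 0.67 TPM in cKO 3, and listed at 0 in cKO 1 and cKO 2. The cKO libraries were thus all above WT for Cdkn1c-202 and all below WT for Cdkn1c-201. Their sum was 5.23, 3.45 and 2.77 TPM across WT, against 4.21, 4.71 and 4.30 TPM across cKO, and the groups overlapped. The means of this sum were 3.82 ± 1.27 and 4.41 ± 0.267 TPM (SD, n = 3 each). Cdkn1c-202 made up 56.2%, 43.8% and 42.6% of this pair in WT 1 to 3, and 100%, 100% and 84.4% in cKO 1 to 3. Because the pair shares nearly all of its bases, the split between them rests on the few bases in which they differ and is less certain than their sum.

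By the means, Cdkn1c-202 alone was 2.23 times as high in cKO as in WT. The sum of the shorter transcripts and that of the assembled transcripts were also higher in cKO, without overlap. Cdkn1c-203 and most of Cdkn1c-205 lie within the bases of Cdkn1c-202, and the structures of the assembled transcripts are not known. The split of the Cdkn1c sum between these transcripts is therefore uncertain, and which of them carried its rise was not tested. Cdkn1c-205 (ENSMUST00000208137) measured 2.95, 4.57 and 1.24 TPM across WT, against 8.47, 3.47 and 10.42 TPM across cKO, and cKO 2 overlapped WT. Cdkn1c-203 (ENSMUST00000207910) measured 1.16, 2.10 and 0 TPM across WT, against 2.33, 6.33 and 3.98 TPM across cKO, with cKO 1 just above WT 2. Summed, this pair measured 4.11, 6.67 and 1.24 TPM across WT, against 10.8, 9.80 and 14.4 TPM across cKO, and the groups did not overlap. The 3 assembled transcripts together had a WT mean of 7.39 ± 1.76 TPM against 16.4 ± 0.240 TPM for cKO (SD, n = 3 each). Without MSTRG.17149.5 the summed Cdkn1c level was 2.03 times as high in cKO as in WT.

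As a share of the Cdkn1c sum, Cdkn1c-201 was the transcript whose groups stood apart. It held 12.3%, 11.3% and 16.2% in WT 1 to 3 and 0%, 0% and 1.91% in cKO 1 to 3. The shares of the other 6 transcripts overlapped between the genotypes. MSTRG.17149.1 held 16.0% to 36.6% in WT and 20.9% to 37.3% in cKO. Cdkn1c-205 held 12.6% to 26.5% in WT and 11.1% to 29.7% in cKO. An antisense gene, Gm44732, overlaps Cdkn1c, and its listed transcript was at 0.87 TPM in WT 2 and at 0 elsewhere.

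**Figure D3:**
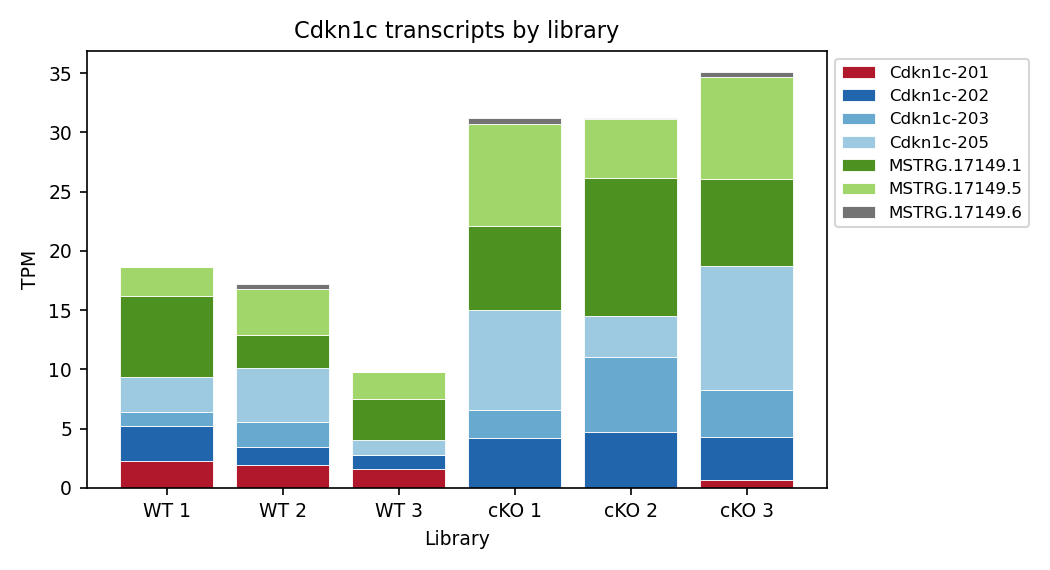
TPM of the 7 listed Cdkn1c transcripts stacked by library, for 3 WT and 3 cKO libraries, so that the height of a bar is the Cdkn1c sum. Cdkn1c-201 is present at the base of every WT bar, at 1.59 to 2.29 TPM, and is at 0, 0 and 0.67 TPM in cKO.

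In the authors' deposited table, 2 of the 10 members have an adjusted p under 0.05, against 0.268% of all listed transcripts (0.0984% higher and 0.17% lower in cKO). For the full-length H19 transcript, the authors' deposited table gives a log2 fold change of -3.02 (adjusted p = 0.00559). For MSTRG.17149.5, the authors' deposited table gives 1.80 (adjusted p = 0.0390). For the other 8 members, adjusted p-values of the authors' deposited table are 0.427 or higher, with 0.711 for Cdkn1c-201 and 0.427 for Cdkn1c-202. The listed values just inside this threshold are 0.0493 for Bri3 and Nid1, and those just outside are 0.0502 for Ptprcap, Grb10 and Zfat. Log2 ratios of the mean TPM lie below the deposited log2 fold changes by a median of 0.38 over 2026 tested transcripts.

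Transcripts with at least 1 TPM in at least 3 of the 6 libraries were tested with limma, and 7 members are among these 2050. Groups did not overlap for 1 of 3 H19 transcripts, which was lower. They did not overlap for 5 of 7 Cdkn1c transcripts, 4 higher and 1 lower. Over all listed transcripts, cKO lay below WT without overlap in 8.11% and above it in 2.39%, and over those tested in 22.9% and 14.1%. Some tested transcripts reached 1 TPM in all libraries of 1 genotype and in none of the other. For these the filter fixed the direction and the lack of overlap. Among the members, these were the full-length H19 transcript and Cdkn1c-201, both through WT. No transcript passed limma's adjusted threshold of 0.05 (0 of 2050, 0%). The lowest limma adjusted p was 0.0651, and 472 transcripts had an unadjusted limma p under 0.05. These p-values measure the spread between the libraries only and run over transcripts already selected for a difference.

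The listed transcripts of genes around H19 and Cdkn1c on distal chromosome 7 were mostly low. Any transcripts of these genes that changed less are not listed, so these values are not the levels of whole genes. Between both genes lie 31 annotated genes, of which 8 have a listed transcript. No transcript of Igf2, the paternally expressed partner of H19, of Ins2, Phlda2 or Kcnq1 is listed, so these were not analysed here. The listed transcript of Kcnq1ot1, the noncoding RNA of the Cdkn1c domain, stayed at or below 0.16 TPM. Apart from the members, 18 of the 25 other genes on the list of neighbours have listed transcripts, 46 in all. Only 2 of these were tested, and neither passed limma. Both reached 1 TPM in the WT libraries alone, so the filter fixed that they were lower in cKO without overlap. Lsp1, which encodes a leukocyte actin-binding protein, measured 1.88, 2.88 and 1.05 TPM across WT, against 0, 0.08 and 0.68 TPM across cKO for ENSMUST00000105966 (limma adjusted p = 0.209). Tspan32, a tetraspanin of blood cells, measured 2.16, 1.49 and 1.18 TPM across WT, against 0.13, 0.28 and 0.75 TPM across cKO for ENSMUST00000082008 (limma adjusted p = 0.209). With all listed transcripts summed, Lsp1 overlapped, at 1.99, 4.24 and 2.19 TPM across WT, against 1.44, 0.08 and 2.15 TPM across cKO. The Tspan32 sum did not overlap, at 3.65, 2.65 and 1.69 TPM across WT, against 0.95, 1.24 and 1.35 TPM across cKO. Tssc4 lies between H19 and Cdkn1c, and its listed transcripts were too low to be tested. Its sum was 3.55, 1.41 and 2.64 TPM across WT, against 1.53, 2.14 and 0.81 TPM across cKO, and the groups overlapped. Nap1l4, a nucleosome assembly gene of the same cluster, was at 6.08 TPM in cKO 3 and listed at 0 elsewhere. The sums of Nadsyn1, Tnni2 and Dhcr7 also overlapped and reached at most 2.44, 3.66 and 1.97 TPM.

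Other imprinted genes were examined from lists of maternally and paternally expressed genes. Of these, 43 have listed transcripts, and for 24 the sum of the listed transcripts stayed under 1 TPM in every library. Any transcripts that changed less are not listed, so these sums are not the levels of whole genes. The summed levels lay below WT without overlap for 6 of the 43 genes (14.0%, against 11.6% of all listed genes) and above WT for 0 (against 3.18%). The highest library was WT 2 for 29 of the 43 (67.4%), against 40.9% of all genes. The 6 genes were Grb10, Igf2r, Mirg, Rian, Slc38a4 and Trappc9, and the sums of 3 of them stayed under 1 TPM.

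Grb10, which encodes an adaptor that dampens insulin and IGF receptor signalling, was the most abundant. Its transcript ENSMUST00000093321 measured 5.66, 24.0 and 12.9 TPM across WT, against 1.13, 3.85 and 3.65 TPM across cKO. As for H19, WT 2 was the highest library and cKO 1 the lowest, but WT 3 was well above WT 1. The log2(TPM + 1) value of Grb10 differed by -1.86 ± 0.67 (SE), with a limma adjusted p of 0.209. Rian, a maternally expressed noncoding RNA of the Dlk1 domain, summed to 3.4, 10.3 and 5.40 TPM across WT, against 0.72, 3.35 and 2.58 TPM across cKO. Meg3, a noncoding RNA of the same domain, overlapped, at 0.04, 4.08 and 0.97 TPM across WT, against 0.22, 0.09 and 0.13 TPM across cKO. Slc38a4, a paternally expressed amino acid transporter, measured 1.54, 2.10 and 1.43 TPM across WT, against 0.21, 0.60 and 0.56 TPM across cKO.

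On the maternal list, 28 of 41 genes are listed, and 3 transcripts of genes other than the members were tested, 1 higher and 2 lower in cKO, of which 0 passed limma (1 at an unadjusted p under 0.05). Besides Grb10 these were Gatm, a creatine synthesis enzyme, at -0.55 (limma adjusted p = 0.379), and Copg2, a coat protein of vesicles, at 0.39 (limma adjusted p = 0.544). Under median-ratio rescaling Gatm was at 0.00. On the paternal list, 17 of 32 genes are listed with 41 transcripts. None reached the level needed for the test, the highest value being 2.10 TPM for Slc38a4. A list of the imprinted gene network, which overlaps both, holds 16 listed genes of 20 and 2 tested transcripts other than the members, those of Grb10 and Gatm.

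**Figure D4:**
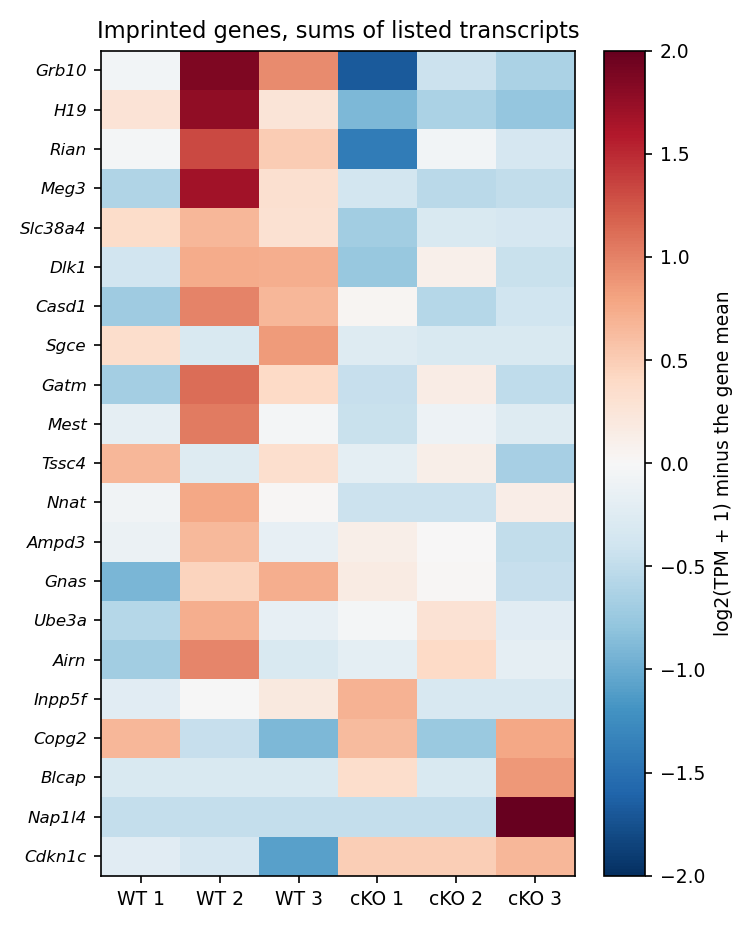
Heat map of log2(TPM + 1) minus the mean of the gene over the 6 libraries, for the summed transcripts of 21 imprinted genes, H19 and Cdkn1c included; columns are libraries, and the colour scale ends at 2 in either direction, which Nap1l4 in cKO 3 exceeds. H19 and Grb10 are highest in WT 2 and low in cKO, and Cdkn1c, in the bottom row, is high in all cKO libraries.

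Cdkn1c was the only inhibitor on a list of 7 CDK inhibitor genes with tested transcripts. Cdkn1a (p21), its relative in the Cip/Kip family, has 3 listed transcripts, none above 0.37 TPM, and no transcript of Cdkn1b (p27), Cdkn2b or Cdkn2c is listed. Cdkn2a, of the INK4 family, measured 1.26, 2.79 and 0.86 TPM across WT, against 0, 0.56 and 0.92 TPM across cKO for ENSMUST00000107131. Cdkn2d, of the same family, measured 0, 0.48 and 0 TPM across WT, against 0.43, 1.35 and 1.34 TPM across cKO. Both overlapped between the groups.

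Of 22 proliferation genes, 18 are listed and 10 transcripts of 9 genes were tested. Of these, 2 were higher and 8 lower in cKO, with a median of -1.06 against -0.39 over all tested, and 0 passed limma (5 at an unadjusted p under 0.05). Cdc20, which activates the ligase that starts anaphase, measured 7.53, 11.5 and 11.3 TPM across WT, against 1.58, 4.01 and 5.11 TPM across cKO (limma adjusted p = 0.209). Top2a, the topoisomerase of dividing cells, measured 1.44, 5.02 and 2.94 TPM across WT, against 0.07, 1.07 and 0.51 TPM across cKO (limma adjusted p = 0.209). The groups of both genes did not overlap. The other most abundant were Mcm5 at -1.10 and Plk1 at -1.02 (limma adjusted p = 0.209 for both) and Mcm3 at 0.90 (limma adjusted p = 0.334). Rrm1, a subunit of ribonucleotide reductase, went the other way, at 0.39, 0 and 0 TPM across WT, against 1.82, 3.35 and 2.55 TPM across cKO (limma adjusted p = 0.134). Rrm1 passed the filter through cKO alone, and Kif11 and Prc1 through WT alone, which fixed their directions. Among G1 cyclins, CDKs, pocket proteins and E2F factors, 15 of 21 genes are listed. The 2 tested transcripts were both of Cdk4, 1 lower at -0.77 (limma adjusted p = 0.209) and 1 higher at 0.48 (limma adjusted p = 0.382).

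Igf2 acts through IGF signalling, and 12 of 20 genes on a list of that pathway are listed. Of its 5 tested transcripts, cKO was higher in 2 and lower in 3, and 0 passed limma (2 at an unadjusted p under 0.05). Igfbp4, a binding protein that holds IGFs outside the cell, measured 7.02, 17.9 and 11.6 TPM across WT, against 1.96, 4.70 and 4.98 TPM across cKO for ENSMUST00000017637, and the groups did not overlap (limma adjusted p = 0.209). Igfbp3 (MSTRG.2412.2) was at 8.40 TPM in WT 2 and at 1.61 TPM or lower elsewhere.

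Markers of other cells differed between the libraries. Of 19 mesothelial and fibroblast markers, from cells of the peritoneal lining, 15 are listed, and cKO was lower in all 12 tested transcripts. Their median difference was -1.28, or -0.83 without WT 2, and 0 passed limma (4 at an unadjusted p under 0.05). The most abundant besides Col1a1 were Col1a2 at -2.02, Col3a1 at -1.73, Lrrn4 at -1.40 and Krt8 at -1.34. Col1a2 ENSMUST00000031668, too low to be tested, was at 0.49, 2.02 and 0.50 TPM across WT and listed at 0 in every cKO library. The authors' deposited table gives it an adjusted p of 1.35e-06. The summed level of the 12 was 59.6, 486 and 143 TPM across WT 1 to 3, against 18.7, 63.8 and 58.3 TPM across cKO 1 to 3. WT 2 was highest and cKO 1 lowest, as for H19, and WT 1 lay within the cKO range. Col1a1, the fibrillar collagen, measured 3.51, 123 and 15.8 TPM across WT, against 1.37, 4.80 and 3.79 TPM across cKO. The listed transcript of Dcn stayed at or below 0.14 TPM, which is not the level of the whole gene. WT 1 and cKO 2 had nearly the same marker sum, while H19 in WT 1 was 3.65 times that in cKO 2. As a percentage of the marker sum, H19 was at 2.94, 1.40 and 1.20 in WT and 1.23, 0.752 and 0.584 in cKO, and the groups overlapped. As such a percentage, Cdkn1c was at 31.2, 3.55 and 6.84 in WT and 167, 48.9 and 60.3 in cKO, without overlap. The part of these cells in either result was not tested.

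**Figure D5:**
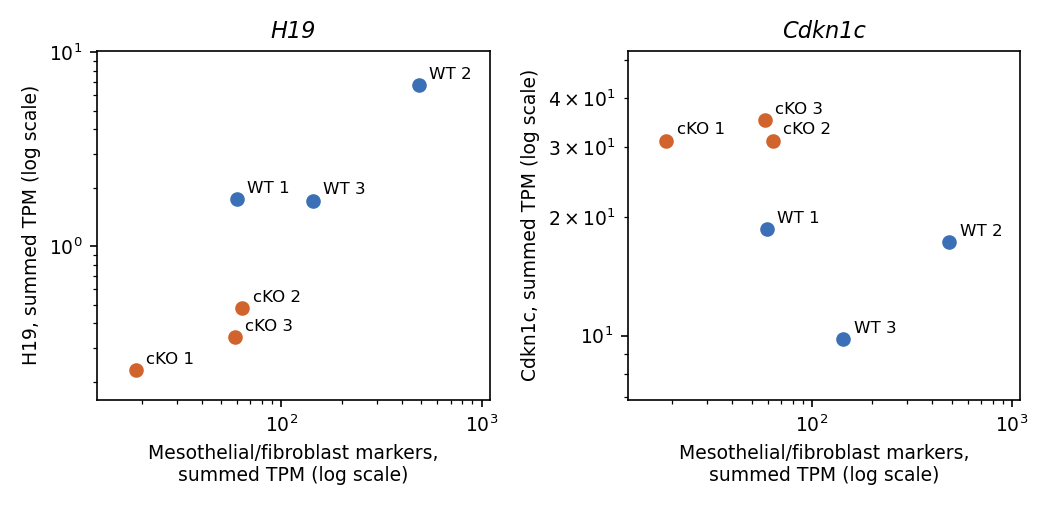
Summed TPM of H19 (left) and Cdkn1c (right) against the summed TPM of 12 mesothelial and fibroblast marker transcripts, both axes on a log scale, with 1 point per library (3 WT, 3 cKO). WT 1 lies at the marker level of cKO 2 and cKO 3 but above them in H19 and below them in Cdkn1c.

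Of 9 macrophage markers, 4 are listed, and Cd14, Cd68, Fcgr1, Lyz2 and Mertk are not among them, so the labelled cell type could be checked in part only. Spi1, the myeloid transcription factor, measured 8.84, 6.89 and 13.0 TPM across WT, against 12.6, 20.5 and 15.7 TPM across cKO. Adgre1, a surface receptor gene of tissue macrophages, measured 4.18, 3.63 and 5.58 TPM across WT, against 1.05, 2.35 and 1.37 TPM across cKO for ENSMUST00000004850. Of the 3 tested macrophage transcripts 1 was higher and 2 were lower, a split that turned to 2 and 1 in 5 of the 12 alternatives (median-ratio rescaling, a pseudocount of 0.1, libraries with Y-linked transcripts alone, without WT 2 and without cKO 1). As a percentage of their sum, H19 was at 13.4, 36.9 and 9.25 in WT and 1.69, 1.99 and 1.84 in cKO, without overlap, and Cdkn1c was at 143, 93.5 and 52.7 in WT and 229, 129 and 190 in cKO, with overlap. Of the markers of large resident peritoneal macrophages, 5 of 7 are listed and both tested transcripts, of Gata6 and Rarb, were lower. Rarb reached 1 TPM in the WT libraries alone, so its direction was fixed by the filter. Gata6, the transcription factor that sets the identity of these cells, measured 2.57, 9.27 and 5.10 TPM across WT, against 0.89, 1.74 and 0.52 TPM across cKO. For it the authors' deposited table gives an adjusted p of 0.0267. As a percentage of the sum of this pair, H19 was at 48.5, 60.4 and 25.2 in WT and 16.6, 21.4 and 33.7 in cKO, and the groups overlapped. Cdkn1c was at 516, 153 and 144 in WT and 2245, 1392 and 3479 in cKO, without overlap. Listed transcripts of lymphocyte markers stayed at or below 1.31 TPM and those of mast cell and neutrophil markers at or below 0.69 TPM, with none tested. Any transcripts of these genes that changed less are not listed, so the values do not show whether such cells were present. Flt1, the tested endothelial marker, measured 1.09, 2.24 and 1.12 TPM across WT, against 0.27, 0.66 and 0.40 TPM across cKO. It passed the filter through WT alone, which fixed its direction.

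The transcripts most like each gene over the 6 libraries were found by the root mean square difference between profiles of log2(TPM + 1), each centred on its own mean. For the full-length H19 transcript, among 1835 candidates, these were Fbln1 at 0.226, Slc44a2 at 0.242, Pxdn at 0.250, C3 at 0.253 and Capn15 at 0.254. Fbln1 encodes fibulin-1, an extracellular matrix protein, and measured 1.11, 4.6 and 1.35 TPM across WT, against 0.17, 0.29 and 0.68 TPM across cKO. For MSTRG.17149.1 of Cdkn1c, among 1830 candidates, these were Procr at 0.151, Plgrkt at 0.157, Htatip2 at 0.186, Lat2 at 0.187 and Rbpms at 0.189. Procr encodes the endothelial protein C receptor, and measured 3.09, 0.52 and 1.22 TPM across WT, against 3.09, 4.6 and 3.61 TPM across cKO. Neither set holds another imprinted gene of the lists.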

How the data were processed

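The deposited table gives 1 row per transcript. Its values are TPM, computed by the authors per library. The authors' own comparison of cKO with WT stands beside them, as a ratio, as log2 of that ratio and as p-values before and after adjustment, per the file headers. Per the labels' protocols, poly(A) RNA was made into stranded libraries, fastp trimmed the reads, HISAT2 aligned them in a strand-aware mode and StringTie assembled them on a reference. The submitters' processing notes name the authors' use of RSEM and DESeq2, with no version. The genome build is not given in the sources used here. Every column of library values was matched to a sample.

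Transcripts with at least 1 TPM in at least 3 of 6 libraries were tested on log2(TPM + 1) with limma 3.58.1 in R 4.3.3 (variance trend, group as the only term, two-sided, Benjamini-Hochberg adjustment over 2050 transcripts), which was also checked on simulated data. Gene sums add the listed transcripts. Sequences and structures came from GENCODE M21 and RefSeq. Tables and figures were made with Python 3.11.15, pandas 2.3.3, numpy 2.4.6, scipy 1.17.1 and matplotlib 3.10.9. The members and the 17 gene lists were chosen with earlier results of these data known. Beyond the members, genes are named if they pass limma or the deposited threshold or are among the 5 most abundant tested members of a list. Neighbours and CDK inhibitors with at least 1 TPM in a library and the 5 profiles most alike are also named. Other names (Rrm1, Kif11, Prc1, imprinted genes given as sums, genes given as not listed or as low) were chosen after their values were seen. The labels speak of pairs of littermates but not of which numbers form a pair. Alternatives were a replicate block, each library left out in turn, median-ratio rescaling, quantile normalization, a pseudocount of 0.1 and no filter on low values. The libraries with Y-linked transcripts alone, and percentages of marker sums, were added after seeing the data.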

Additional observations from a re-analysis of the deposited data

How the results depend on the processing

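H19 stayed lower and Cdkn1c higher in cKO, as sums and as most abundant transcripts, under the 10 alternatives that can change these differences. The other 2, the replicate block and no filter, leave them as they are by construction. Under quantile normalization the sums hold tested transcripts only, so the H19 sum there is its full-length transcript alone and the Cdkn1c sum lacks MSTRG.17149.6. With each library left out in turn, the difference ranged from -1.78 to -1.02 for the H19 sum, from -1.77 to -1.03 for its full-length transcript, from 0.82 to 1.25 for the Cdkn1c sum and from 0.67 to 1.20 for MSTRG.17149.1. With a pseudocount of 0.1 the H19 sum was at -2.70 and the full-length transcript at -2.76. Median-ratio rescaling, which moved the median of all tested transcripts by 0.71, gave 2.06 for the Cdkn1c sum, 1.67 for MSTRG.17149.1 and -0.97 for the H19 sum. Its factors came from listed transcripts alone, all selected for a difference between the genotypes, so they are not independent of that difference. Among libraries with Y-linked transcripts, where WT 3 is the only WT library, the Cdkn1c sum was at 1.63 and the H19 sum at -1.02. The count past limma's threshold, 0, became 3 with quantile normalization and ranged from 0 to 4 with each library left out, 4 without cKO 2. Leaving out H19 and Cdkn1c, for which no test is given, the count for imprinted genes was 0 throughout. The median over the 10 tested imprinted-gene transcripts, 6 of them of Cdkn1c, was 0.64, and it was -0.55 over the 3 that are not of H19 or Cdkn1c. The former became 1.11 with rescaling, 1.05 among libraries with Y-linked transcripts, and 0.39 to 0.95 with each library left out. With no filter the median was -0.0588, but over all listed imprinted-gene transcripts, most of them low, and not over the same 10. The mesothelial median ranged from -1.59 to -0.83 with each library left out and was -0.49 with rescaling. Signs turned for Gatm with rescaling (0.00216) and, among libraries with Y-linked transcripts, for Igfbp3 (0.38) and for Igf2bp2 MSTRG.6966.3 (-0.32), and the split of the macrophage markers turned in 5 alternatives. The cause was not tested. With the replicate block 0 transcripts passed and 499 had an unadjusted p under 0.05 against 472. Deviations of libraries with the same number correlated at 0.13, -0.14 and -0.11, within the range of -0.19 to 0.23 for unlike numbers. With 3 libraries per genotype this cannot show whether the numbers form pairs, and they were not read as pairs. Depth is unknown.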

Other observations

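Regulators of imprints were examined beside the imprinted genes. Of 22 genes for imprint maintenance, CTCF and Polycomb, 21 are listed with 71 transcripts. Of the 6 that were tested, 2 lay higher and 4 lower in cKO, and 0 passed limma (2 at an unadjusted p under 0.05). Both of the latter were of Eed, a core subunit of the Polycomb complex that methylates histone H3. Eed ENSMUST00000238981 measured 0.34, 0.81 and 0 TPM across WT, against 3.47, 8.76 and 6.91 TPM across cKO (limma adjusted p = 0.134). For this transcript the authors' deposited table gives an adjusted p of 7.46e-05. Eed ENSMUST00000107234 measured 8.16, 7.60 and 9.83 TPM across WT, against 3.58, 0 and 0 TPM across cKO (limma adjusted p = 0.192). For both transcripts the groups did not overlap, in opposite directions. Eed ENSMUST00000238981 reached 1 TPM in cKO alone, so its direction and lack of overlap were fixed by the filter. Ctcf, whose protein binds the H19 control region, measured 0.43, 1.79 and 1.67 TPM across WT, against 0.21, 1.02 and 0.27 TPM across cKO for MSTRG.17952.2, with overlap. Dnmt3a, a DNA methyltransferase that sets germ-line imprints, stood at 9.04 TPM in WT 2, against 0.66 to 1.58 TPM elsewhere. Ezh2, the enzyme of that complex, was at 0.64 (limma adjusted p = 0.328) and Trim28, a corepressor that protects imprints, at -0.92 (limma adjusted p = 0.301), both with overlap.

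Of 9 genes for RNA-binding partners of H19, 8 are listed. The 3 tested transcripts, of Igf2bp2 and Ezh2, were higher in cKO, with a median of 0.64, and 0 passed limma (0 at an unadjusted p under 0.05). Among libraries with Y-linked transcripts alone, 2 were higher and 1 lower. Igf2bp2, an mRNA-binding protein gene, measured 1.19, 1.71 and 0.26 TPM across WT, against 2.51, 3.00 and 1.67 TPM across cKO for MSTRG.6966.2 (limma adjusted p = 0.243). Its groups overlapped, through WT 2 and cKO 3.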
